A study of Mus musculus with 6 samples.

Results

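The genes of Polycomb repressive complex 1 (PRC1) described here are *Bmi1*, *Pcgf2*, *Ring1*, *Rnf2*, *Cbx2*, *Cbx6*, *Cbx7*, *Cbx8*, and *Phc1*, 9 genes of 14894 tested. They were taken as a named set of subunits, and their probes were found through the RefSeq accessions that the array carries, which gave 14 probes, at least 1 for each of the 9 genes. All 14 probes were well above background, by the flag of the scanner software, on every array with complete scanner output, so no subunit was lost to the filter on dim probes.

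PRC1 is a ubiquitin ligase that marks histone H2A and keeps developmental genes silent. Its core pairs a RING1-type ligase (*Ring1* or *Rnf2*) with a PCGF protein, and the canonical form adds a CBX protein, whose chromodomain binds histone H3 methylated at lysine 27 by the sister complex PRC2, and a PHC protein, which polymerizes and compacts chromatin. Variant PRC1 carries RYBP or YAF2 in place of CBX and PHC. The H3.3K27M protein of diffuse midline glioma is known for inhibiting PRC2, and BMI1 is known in neural stem cells and glioma for its repression of the *Cdkn2a* locus.

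The control group, WT, was OS3-vector (OS3 glial cells carrying the empty vector) and the other group, IG27, was OS3-H3F3A_K27M (OS3 cells carrying the H3.3-K27M mutation), with 3 samples each. Every sample was read on its own single-color Agilent mouse array, and the 6 arrays shared a slide. Both groups came from mouse brain (C3H and male per the labels, newborn C3H/HeN per the methods of the study), were immortalized with SV40, whose large T antigen acts on the p53 and Rb pathways in both groups, and were cultured for 2 days in the same serum-containing medium. The H3.3K27M construct was a plasmid (pcDNA3.1) introduced by transfection, and clones were selected with a drug. The sources do not say whether the IG27 samples are 1 clone, and the replicates are samples of a cell line, so p-values measure the spread between these samples and not between independent transfections. In these bulk samples, fewer cells of a type and less RNA per cell cannot be told apart.

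Values are normalized log2 intensities, that is, log2 of the processed signal minus the 75th percentile of the array, so 0 is the level of that percentile. They show how 1 probe differs between arrays and do not rank genes by abundance. IG27 replicate 2 was taken from the deposited value table, because its scanner output stops after 285 of 62976 spots. Between 58.8% and 61.2% of 56605 probes were well above background on the other 5 arrays. Pearson's r across the genes tested, each by its brightest probe, was 0.994 to 0.997 within the groups and 0.902 to 0.905 between them. Of the astrocyte markers, 7 of 9 in WT and 8 of 9 in IG27 cells were well above background, with a summed level of 6.61 to 6.74 in WT and 6.07 to 6.21 in IG27 cells (normalized log2). The sum follows its brightest gene, *Gfap*, which fell by 1.07, whereas of the 8 astrocyte markers tested 4 were called higher and 3 lower, with a median log2 fold change of 0.42. The oligodendrocyte lineage markers were detected in 8 of 9 and 9 of 9, with sums of 6.21 to 6.25 and 6.23 to 6.28. Of these 9 markers 4 were called higher and 2 lower, although the sum, led by *Sox10*, stayed near its WT range. Their median of 0.61 was the value of *Cspg4*, which was not called and not well above background in WT cells. Markers of both glial lineages were thus detected, beside markers of other cell types, and do not single out a glial identity. Neuron markers (4 of 6 in WT, 3 of 6 in IG27) summed to 4.21 to 4.38 in WT and 2.92 to 3.07 in IG27 cells, with *Rbfox3* and *Syt1* not above background. Microglia markers (3 and 4 of 7) summed to 2.30 to 2.41 and 1.40 to 1.56, with *Cx3cr1*, *C1qa*, and *Ptprc* not above background, and mesenchymal markers (3 and 4 of 6) to 7.22 to 7.25 and 6.32 to 6.41, with *Col1a2* and *Lum* not above background. Endothelial markers (1 and 2 of 5) summed to -2.54 to -2.36 and 1.38 to 1.42, with *Cdh5*, *Cldn5*, and *Tek* not above background. Of the markers tested, 0 neuron markers were called higher and 2 lower, 2 and 2 for microglia, and 1 and 3 for mesenchymal. Of the 2 endothelial markers tested, *Kdr*, not well above background in WT cells, was called higher, and *Pecam1* lower, at -0.27. The sums thus do not describe every marker of a list. All of the marker sums except that of the oligodendrocyte lineage lay apart between the groups. Single markers of both glial lineages were called as well, as were 70.5% of all genes tested. The part of the markers in the results was not tested.

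The sequences just before the transcription start are shown for 4 subunits that changed, *Rnf2* and *Cbx6*, which rose, and *Bmi1* and *Phc1*, which fell, because they let the promoters of subunits moving in opposite directions be read side by side. RefSeq (GRCm38.p6) gave a window of 250 bases for 8 of the 9 subunits. Those of *Pcgf2* and *Cbx7* lie inside a longer annotated range of the same gene and are not printed. Capitals mark the E-box CACGTG and the GC box GGGCGG, each searched on both strands (the GC box of the other strand reads CCGCCC), and neighboring GC boxes can overlap. Each sequence reads 5′ to 3′ on the strand of the gene and ends at the base before the start.
Bmi1, chr2:18676768-18677017, plus strand: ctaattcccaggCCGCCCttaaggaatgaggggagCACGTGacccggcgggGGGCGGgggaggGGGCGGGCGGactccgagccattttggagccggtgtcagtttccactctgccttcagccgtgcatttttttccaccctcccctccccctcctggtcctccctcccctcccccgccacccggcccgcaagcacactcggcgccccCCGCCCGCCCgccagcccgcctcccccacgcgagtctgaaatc
Phc1, chr6:122340228-122340477, minus strand: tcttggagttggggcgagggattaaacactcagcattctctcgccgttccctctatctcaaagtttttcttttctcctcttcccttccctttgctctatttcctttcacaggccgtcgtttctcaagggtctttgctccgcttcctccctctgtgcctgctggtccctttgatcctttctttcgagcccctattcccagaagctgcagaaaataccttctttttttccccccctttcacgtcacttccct
Rnf2, chr1:151500992-151501241, minus strand: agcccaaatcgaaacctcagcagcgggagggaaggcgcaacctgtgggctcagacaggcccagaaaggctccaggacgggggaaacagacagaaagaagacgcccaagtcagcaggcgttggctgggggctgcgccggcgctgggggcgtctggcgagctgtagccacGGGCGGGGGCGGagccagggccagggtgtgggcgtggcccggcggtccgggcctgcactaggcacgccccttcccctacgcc
Cbx6, chr15:79834334-79834583, minus strand: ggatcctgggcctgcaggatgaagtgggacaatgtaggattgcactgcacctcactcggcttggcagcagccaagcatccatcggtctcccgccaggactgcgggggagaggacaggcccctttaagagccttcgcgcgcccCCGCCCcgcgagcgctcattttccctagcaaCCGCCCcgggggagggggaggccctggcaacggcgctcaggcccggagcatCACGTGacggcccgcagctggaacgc
The E-box stood in 4 of 8 windows, those of *Bmi1* (215 bases before the start), *Pcgf2* (137 bases), *Cbx6* (26 bases), and *Cbx8* (98 bases), against 6.02% of 32851 promoter windows and 10.1% of the 5896 windows with at least 20 CpG. Those 4 subunits comprised 2 that fell, 1 that rose, and 1 that did not pass the test. The GC box stood in 7 of 8 windows, all but that of *Phc1*, against 32.7% of all windows and 80.9% of the CpG-rich ones. The window of *Bmi1* held 6 GC boxes and 21 CpG at 70.4% GC, whereas that of *Phc1*, a pyrimidine-rich stretch, held none, with 8 CpG at 49.6% GC. The median window had 52.4% GC and 6 CpG. The letters of the E2F site TTTCGCGC and of the NRF1 core motif were in 0 of 8 windows (0.256% and 0.782% of all windows), and CCAAT was in 2 of 8 (33.8% of all). These matches describe letters and not binding.

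PRC1 subunits moved in both directions in IG27 cells. *Cbx7*, *Cbx6*, and *Rnf2* rose, *Bmi1*, *Pcgf2*, and *Phc1* fell, and *Ring1*, *Cbx2*, and *Cbx8* did not pass the test. The ligases and the CBX proteins thus each held members with different outcomes. Of the 9 subunits, 6 were called (66.7%) with limma at an adjusted p under 0.05, against 70.5% of all genes tested. Of all genes, 30.5% were called higher and 40% lower, and 3 subunits were called each way. The groups did not overlap in the same 6 subunits, against 75.7% of all genes. The share of subunits called was thus close to that of all genes on these arrays. A change of at least 2-fold was called for 2 subunits, *Bmi1* and *Cbx7*, against 23.1% of all genes. *Bmi1* stood at that limit, and its log2 fold change fell short of it without WT replicate 1 (-0.962), WT replicate 3 (-0.977), or IG27 replicate 1 (-0.953), with quantile normalization or normexp background correction (-0.845 in both), with the mean of its probes (-0.969), and with the slide row as a block (-0.878), each of which left *Cbx7* as the subunit past 2-fold. The median log2 fold change of the subunits was -0.01 against -0.07 for all genes, and the median size without sign was 0.73 against 0.47. When the median of each array was subtracted in place of the 75th percentile, the median of all genes moved to -0.308, the share of called genes that were higher went from 43.3% to 27.5%, and 5 subunits were called lower. On that scale *Cbx7*, at 0.995, fell short of 2-fold, whereas *Bmi1*, at -1.24, and *Pcgf2*, at -1.016, were past it.

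**Figure D1:**
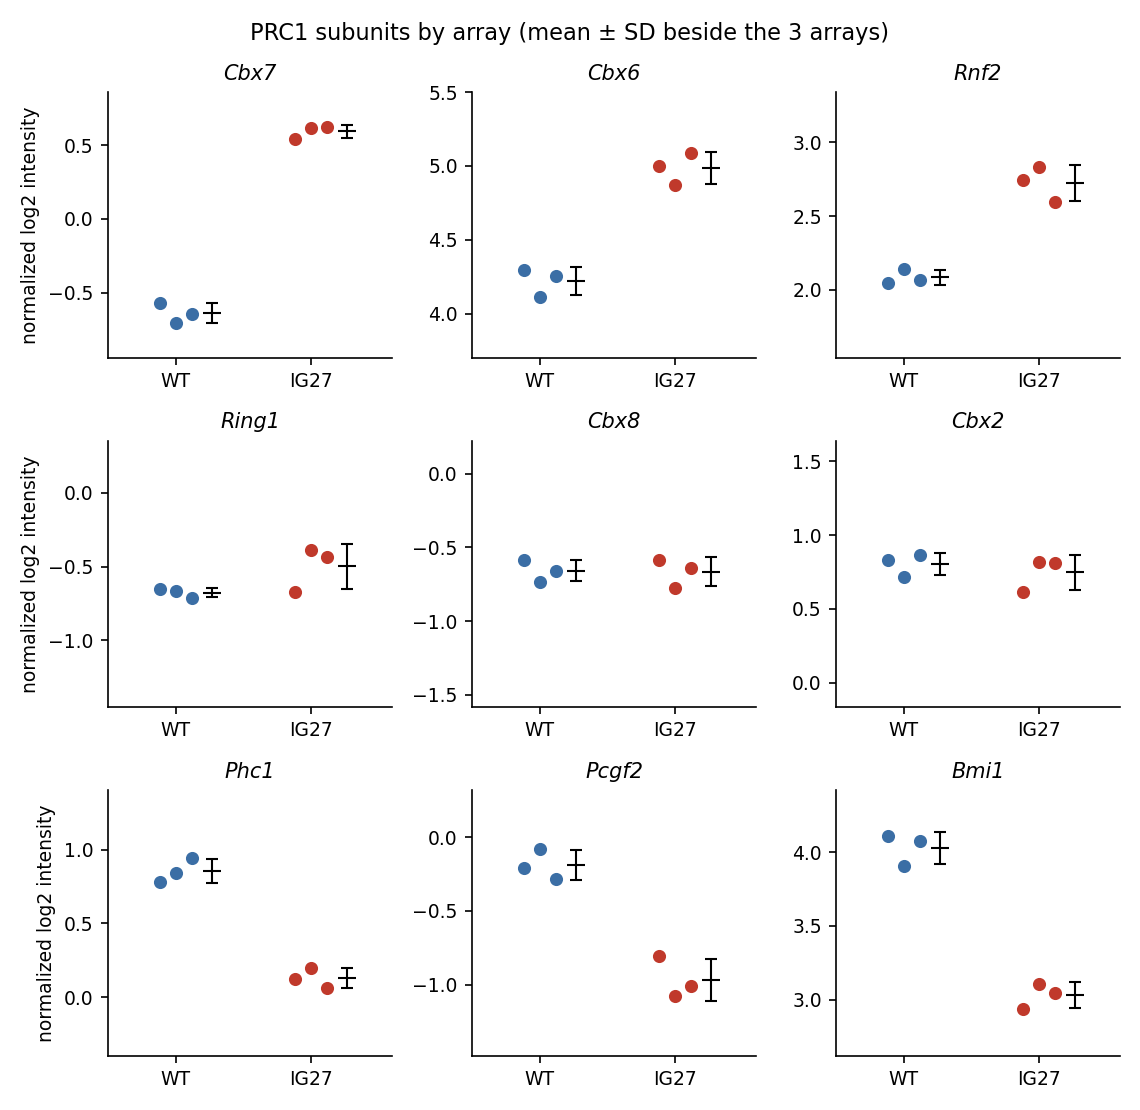
Normalized log2 intensity (vertical axis, the same span in each panel) of each PRC1 subunit in the 3 WT and 3 IG27 arrays, with the mean and SD beside the points. The groups are apart in *Cbx7*, *Cbx6*, *Rnf2*, *Phc1*, *Pcgf2*, and *Bmi1* and overlap in *Ring1*, *Cbx8*, and *Cbx2*.

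Among the catalytic subunits, *Rnf2*, which encodes RING1B, the main H2A ligase of PRC1, rose in IG27 cells. Its normalized log2 intensity was 2.05, 2.14, and 2.07 in WT and 2.74, 2.83, and 2.60 in IG27 replicates 1 to 3. All IG27 arrays were above all WT arrays. The log2 fold change was 0.64 ± 0.07 (SE; 1.56-fold; limma, adjusted p = 3.47e-04), and the other 2 probes of *Rnf2* gave 0.85 and 0.70. *Ring1*, which encodes the alternative ligase RING1A, stood at -0.65, -0.67, and -0.71 on the normalized log2 scale in WT cells and at -0.67, -0.39, and -0.44 in IG27 cells. IG27 replicate 1 lay within the WT values, and the other two IG27 arrays lay above them. The log2 fold change was 0.18 (95% interval -0.03 to 0.38; limma, adjusted p = 0.103), so a rise of up to 1.30-fold remained within the interval. Without IG27 replicate 1 *Ring1* was called, at 0.264 (limma, adjusted p = 0.0074), and on the scale centered on the array median it stood at -0.062.

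Both PCGF subunits of canonical PRC1 fell. *Bmi1* (PCGF4), the partner that stimulates the ligase and sustains self-renewal of neural stem cells, stood at normalized log2 intensities of 4.11, 3.91, and 4.08 across the WT arrays and 2.94, 3.11, and 3.05 across the IG27 arrays. Every IG27 array was below every WT array. The log2 fold change was -1.0 ± 0.08 (SE; 2.00-fold lower; limma, adjusted p = 5.45e-05), the largest fall among the 9 subunits on this scale, and its second probe gave -0.94. *Pcgf2* (MEL18), the paralog that can take the place of BMI1 in the complex, was measured at -0.21, -0.08, and -0.28 in WT and -0.81, -1.08, and -1.01 in IG27 cells. These groups did not overlap either. Its log2 fold change was -0.78 ± 0.09 (SE; 1.71-fold lower; limma, adjusted p = 3.96e-04), with -0.73 at the second probe.

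The CBX subunits, which read the methylated H3 tail, split into a pair that rose and a pair that did not pass the test. *Cbx7*, a CBX protein of stem and progenitor cells, was measured at -0.57, -0.71, and -0.64 (normalized log2) in WT and at 0.54, 0.62, and 0.63 in IG27 cells. The IG27 arrays lay close together and far above the WT arrays. The log2 fold change of 1.23 ± 0.06 (SE; 2.35-fold; limma, adjusted p = 5.47e-06) was the largest among the 9 subunits. *Cbx6*, its neighbor on chromosome 15, was measured at 4.30, 4.11, and 4.26 in WT and 5.00, 4.87, and 5.09 in IG27 cells. All IG27 arrays again exceeded all WT arrays, with a log2 fold change of 0.76 ± 0.08 (SE; 1.70-fold; limma, adjusted p = 2.13e-04) and 0.79 at the second probe.

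*Cbx2*, the CBX protein whose own charged stretch compacts nucleosomes, was measured at 0.83, 0.72, and 0.86 (normalized log2) in WT and at 0.61, 0.82, and 0.81 in IG27 cells. *Cbx8*, next to it on chromosome 11, had -0.59, -0.73, and -0.66 in WT and -0.58, -0.77, and -0.64 in IG27 cells. The groups overlapped in both genes. The log2 fold change was -0.06 for *Cbx2* (95% interval -0.24 to 0.13; limma, adjusted p = 0.539). For *Cbx8* it was -0.01 (95% interval -0.18 to 0.17; limma, adjusted p = 0.949). Both genes were called lower when the array median was subtracted (-0.296 and -0.245, limma, adjusted p = 0.0354 and 0.0343), where the median of all genes was -0.308.

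*Phc1*, the Polyhomeotic subunit whose SAM domain polymerizes, fell in IG27 cells. Its normalized log2 intensity was 0.78, 0.84, and 0.94 in WT and 0.12, 0.20, and 0.06 in IG27 cells. The groups lay apart, and the log2 fold change was -0.73 ± 0.06 (SE; 1.65-fold lower; limma, adjusted p = 1.08e-04). In all, 6 of the 14 probes were called higher, 5 lower, and 3 not, and in the 4 subunits with more than 1 probe all probes gave the direction of the brightest one.

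**Figure D2:**
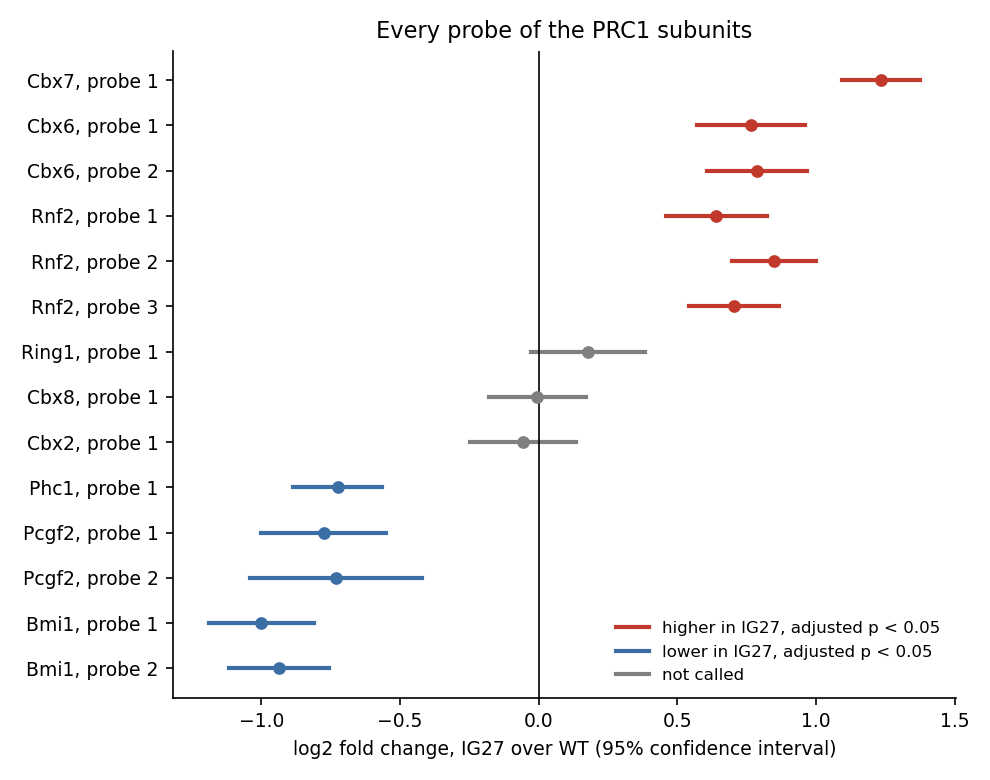
Log2 fold change of IG27 over WT cells (horizontal axis) with its 95% confidence interval for each of the 14 probes, ordered by subunit from the largest rise to the largest fall. The probes of 1 subunit share their direction, and the intervals of *Ring1*, *Cbx8*, and *Cbx2* hold 0.

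The slide has rows, and WT replicate 2 shared its row with all IG27 arrays, while the remaining WT arrays were in a different one. With the row as a block, IG27 cells are set against WT replicate 2 alone, which is assumed to vary like the other arrays. In that fit the same 6 subunits were called, with *Cbx7* at 1.301, *Bmi1* at -0.878, and *Pcgf2* at -0.885, so that *Pcgf2* fell more than *Bmi1*.

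In descending order of log2 fold change, the subunits ran *Cbx7*, *Cbx6*, *Rnf2*, *Ring1*, *Cbx8*, *Cbx2*, *Phc1*, *Pcgf2*, *Bmi1*. Neighbors in this order were compared by the difference of their log2 values within each array. It separated the groups between *Cbx7* and *Cbx6*, between *Rnf2* and *Ring1*, and between *Cbx2* and *Phc1*. Between the other neighbors in the order, that is *Cbx6* and *Rnf2*, *Ring1* and *Cbx8*, *Cbx8* and *Cbx2*, *Phc1* and *Pcgf2*, and *Pcgf2* and *Bmi1*, the groups overlapped, so these neighbors did not differ beyond the spread of the arrays. Subunits farther apart in the order were not compared in this way.

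Paralogs that can occupy the same place in PRC1 were then compared within each array, which removes the scaling. These 6 ratios were tested with a two-sided exact permutation test, which cannot go below p = 0.1 with 3 arrays against 3. The log2 ratio of *Cbx7* to *Cbx8* differed by 1.24 (IG27 minus WT), and that of *Ring1* to *Rnf2* by -0.46. The difference was -0.47 for *Cbx6* to *Cbx7* and -0.99 for *Phc1* to its paralog *Phc2*. In these 4 ratios the groups did not overlap, each with the smallest possible p (exact permutation p = 0.1, 0.15 adjusted over the 6 pairs). *Phc2* itself had a log2 fold change of 0.26 (limma, adjusted p = 0.199), with WT replicate 1, at 4.04, below the other WT arrays at 4.57 and 4.65. The ratio of *Bmi1* to *Pcgf2* differed by -0.22 (exact permutation p = 0.3, 0.36 adjusted), a value that ran from -0.34 without WT replicate 2 to -0.098 without IG27 replicate 1 and was -0.035 with quantile normalization. The ratio of *Cbx2* to *Cbx8* differed by -0.05 (exact permutation p = 0.9, 0.9 adjusted), and in both pairs the groups overlapped. The latter difference turned positive under 3 settings, at 0.054 with quantile normalization, 0.02 with normexp background correction, and 0.057 without IG27 replicate 1.

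**Figure D3:**
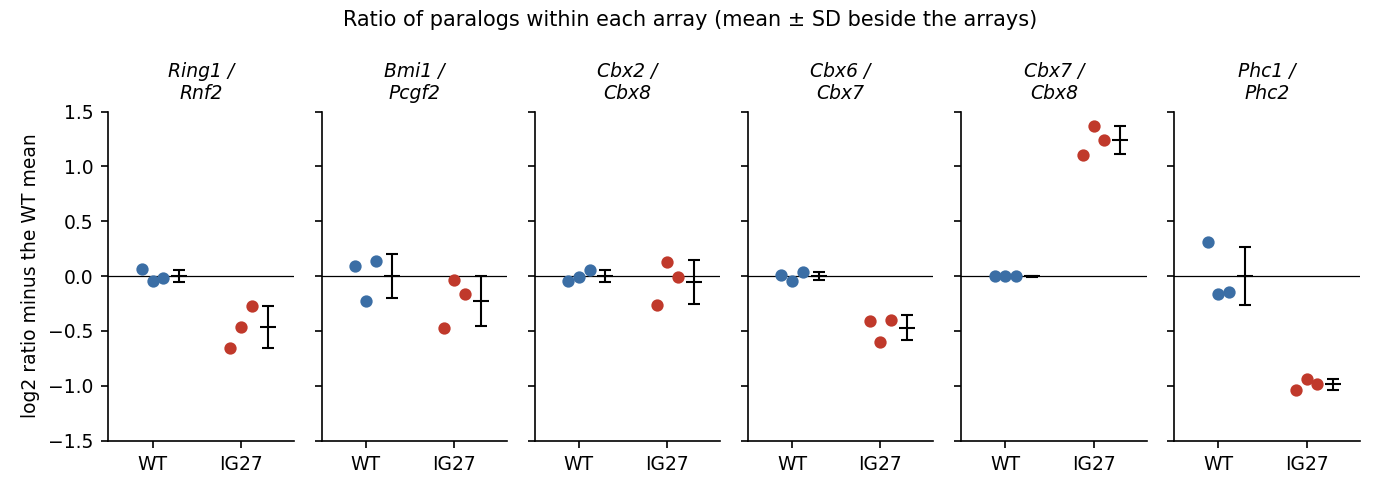
Log2 ratio of paralogs within each array minus the mean of the WT arrays (vertical axis) for 6 pairs in the 3 WT and 3 IG27 arrays, with the mean and SD beside the points. The IG27 arrays lie apart from the WT arrays in *Ring1* to *Rnf2*, *Cbx6* to *Cbx7*, *Cbx7* to *Cbx8*, and *Phc1* to *Phc2*.

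The other genes of canonical PRC1 also moved both ways. Of 5 tested, 3 were called (60%, against 70.5% of all genes), 1 higher and 2 lower. *Scmh1*, a Sex comb on midleg homolog that associates with PRC1, was measured at 0.64, 0.55, and 0.64 in WT and 1.46, 1.47, and 1.61 in IG27 cells, and its log2 fold change was 0.90 (limma, adjusted p = 3.29e-05). *Phc3*, the third Polyhomeotic paralog, was measured at 0.86, 0.92, and 1.05 in WT and -0.32, -0.14, and -0.04 in IG27 cells, and changed by -1.11 on the log2 scale (limma, adjusted p = 7.59e-05). Both genes separated the groups on all 6 arrays, in opposite directions. *Scml2*, a further SAM domain protein, fell by 0.33 on the log2 scale, with -1.10 at its other probe.

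Of the variant PRC1 genes, 14 of 21 tested were called (66.7%, against 70.5% of all genes), 4 higher and 10 lower, with a median log2 fold change of -0.02. *Pcgf5*, the PCGF protein of a variant complex with RYBP or YAF2, was measured at 1.64, 1.73, and 1.73 in WT and 3.32, 3.36, and 3.42 in IG27 cells. This was a log2 fold change of 1.66 (3.17-fold; limma, adjusted p = 1.36e-06), the largest rise in the Polycomb lists, while *Bmi1* and *Pcgf2* fell. Of the other PCGF genes of variant PRC1, *Pcgf3* was called lower, at -0.57 (limma, adjusted p = 1.79e-04), and *Pcgf1* and *Pcgf6* were not called. *Fbrsl1*, related to the AUTS2 subunit, rose by 0.32. *Tfdp1* and *E2f6*, which pair in the variant complex that also holds MGA, had log2 fold changes of -1.26 and -0.95 (limma, adjusted p = 1.2e-05 and 1.37e-04). TFDP1 also pairs with the other E2F factors.

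Enzymes and partners that remove ubiquitin from H2A, the reverse of the PRC1 reaction, were called in 8 of 12 genes tested (66.7%, near the 70.5% of all genes). Of these, 1 was higher and 7 lower, where 30.5% and 40% of all genes were called each way. The median log2 fold change was -0.20, against -0.07 for all genes. Such medians depend on the scaling, as that of all genes was -0.308 with the array median subtracted. *Usp3*, an H2A deubiquitinase, rose by 1.30, and *Bap1*, the catalytic subunit of the Polycomb repressive deubiquitinase, changed by -0.63 (limma, adjusted p = 5.99e-06 and 4.89e-05). *Mbd5*, which encodes a partner of BAP1, fell by 1.47. PRC2 genes, whose product lays down the mark that CBX proteins read, were called in 8 of 12 (again 66.7%), 3 higher and 5 lower. *Ezh1* and *Rbbp4* rose by 0.45 and 0.44, and *Epop* and *Jarid2*, PRC2 accessory subunits, had log2 fold changes of -0.87 and -0.66. *Ezh2* and *Rbbp7*, the paralogs of *Ezh1* and *Rbbp4*, were called lower, at -0.55 and -0.64 (limma, adjusted p = 4.16e-04 and 4.58e-05). Of 5 *Ezh2* probes, 3 were called lower and 0 higher.

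**Figure D4:**
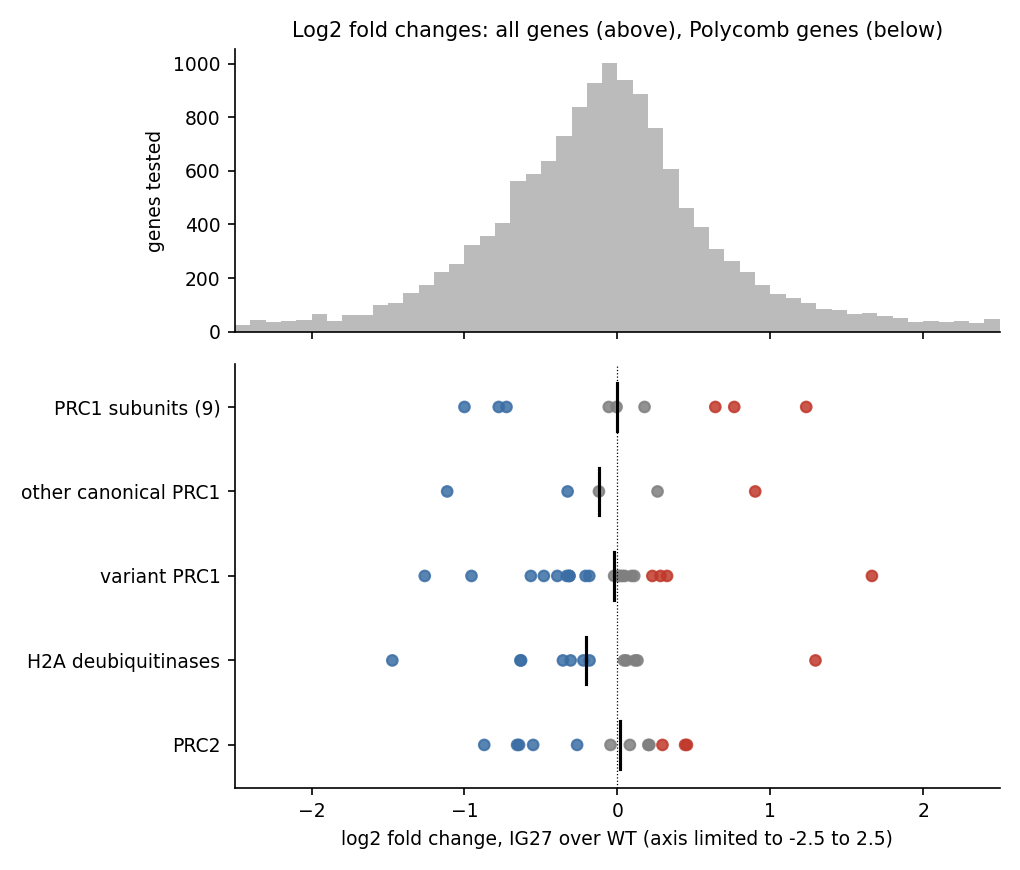
Number of genes tested by log2 fold change of IG27 over WT cells (above, bins of 0.1, axis limited to -2.5 to 2.5) and the log2 fold change of each PRC1 subunit and of 4 other Polycomb gene lists (below; red, called higher; blue, called lower; gray, not called; black line, median of the list). In each list, genes were called in both directions.

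Of 18 genes known as Polycomb targets, 6 passed the filter on dim probes, and 12 (among them *Pax6*, *Gata4*, and *Isl1*) had only probes that failed it in both groups. As the filter kept genes that were high in at least 1 group, the counts among the 6 describe them only. Of the 6, 4 were called (66.7%, near the 70.5% of all genes), 2 higher and 2 lower. *Cdkn2b*, the CDK inhibitor beside *Cdkn2a*, was measured at -3.73, -3.63, and -3.41 in WT and -2.64, -2.82, and -2.68 in IG27 cells, and rose by 0.87 on the log2 scale (limma, adjusted p = 3.16e-04). *Cdkn2a*, the target best known for repression by BMI1 and CBX7, was measured at 5.09, 5.02, and 5.26 in WT and 5.10, 4.81, and 5.31 in IG27 cells. These overlapped, at a log2 fold change of -0.05 (95% interval -0.38 to 0.29; limma, adjusted p = 0.77). *Sox17*, an endoderm factor, rose by 0.52, from a mean of -4.80 in WT to -4.28 in IG27 cells. *Wt1*, a factor of kidney development, had a log2 fold change of -3.43 (limma, adjusted p = 5.36e-06). Of these targets, 2 rather than 4 were called with normexp background correction and with the slide row as a block.

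Genes beside the subunits were read as well, in the order of the RefSeq annotation. *Cbx6* and *Cbx7* lie next to each other on chromosome 15 with *Apobec3* between them among the genes tested. Of the 11 other genes from 5 before *Cbx6* to 5 after *Cbx7*, 10 were called higher (against 30.5% of all genes) and 1 lower, and their median log2 fold change was 0.73. Their highest values included *Syngr1* at 1.63 and *Pdgfb*, which encodes a PDGF ligand, at 1.40, and *Npcd*, at -0.54, was the exception. *Gm16576* had no probe well above background in WT cells. The median log2 fold change of all 611 genes tested on chromosome 15 was 0.30, against -0.07 over all genes. The 2 CBX genes that rose thus stood among neighbors that rose with them, and the part of this in their change was not tested.

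At *Bmi1* on chromosome 2, 6 of 10 neighbors were called lower (against 40% of all genes) and 4 were not called, with a median log2 fold change of -0.27. *Commd3*, which precedes *Bmi1* directly, changed by -0.76 (limma, adjusted p = 5.68e-05). The median of chromosome 2 was -0.34 over 1149 genes. The neighbors of *Pcgf2* on chromosome 11, *Epop* among them, were called lower in 7 of 10, with a median of -0.42, whereas the chromosome had a median of -0.12. *Cbx2* and *Cbx8* stood among 10 other genes of which 3 were called higher and 4 lower, with a median of -0.04. Around *Rnf2* and *Phc1* the medians of 10 neighbors were 0.11 and -0.11. Around *Ring1* the median was 0.46, with 7 of 10 called higher (against 30.5% of all genes). The median of chromosome 17, which holds *Ring1*, was 0.16 over 764 genes.

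**Figure D5:**
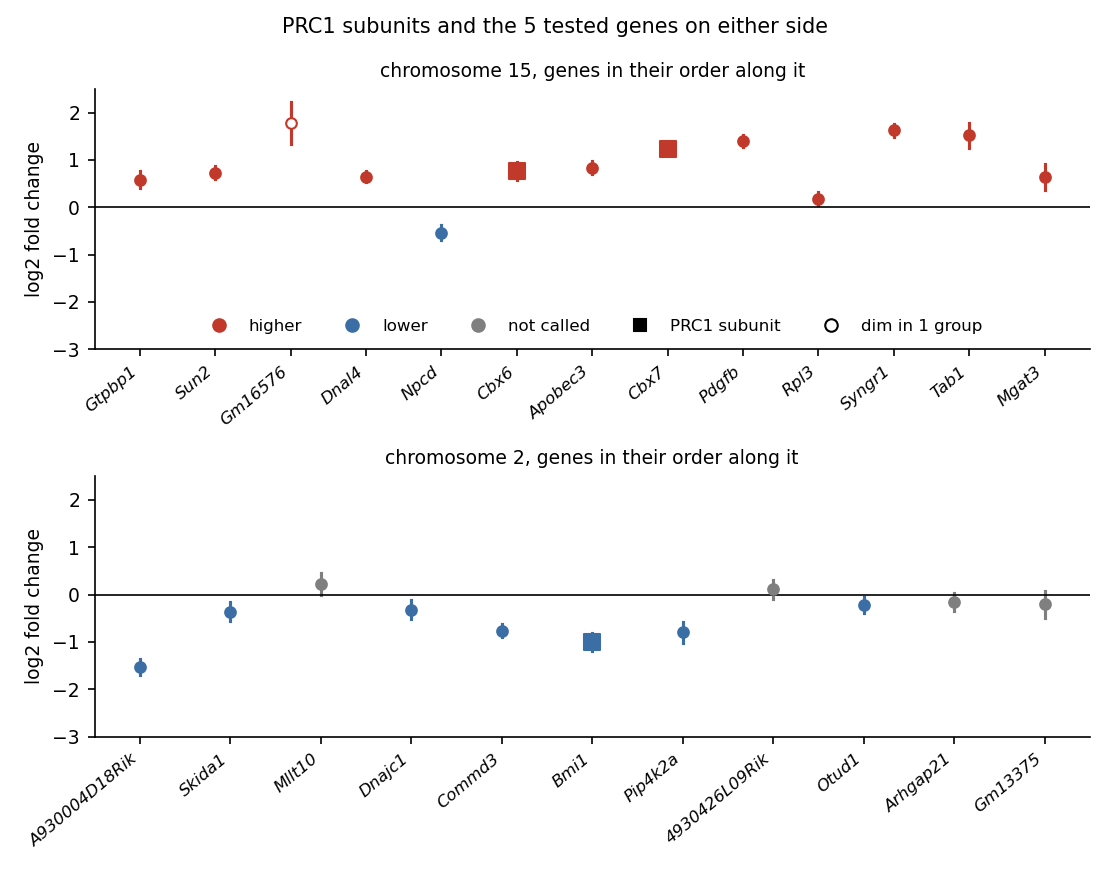
Log2 fold change of IG27 over WT cells (vertical axis, with the 95% confidence interval) of PRC1 subunits (squares) and of the 5 genes tested on either side (circles; open, not well above background in 1 group), in their order along the chromosome. Around *Cbx6* and *Cbx7* 10 of 11 genes are called higher, and around *Bmi1* 6 of 10 are called lower.

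The genes whose values over the 6 arrays were most like those of *Cbx7* were *Mvp* (major vault protein), *AV051173*, and *Kdelr3* (a receptor that returns proteins to the endoplasmic reticulum). Their root mean square differences from *Cbx7*, after centering on the WT arrays, were 0.0283, 0.0322, and 0.0335 log2 units. For *Bmi1* they were *Lrig2*, *Slc35e3*, and *Tmod1*, at 0.036, 0.0375, and 0.0401. Such a match is common here, as 250 genes lay within 0.15 of *Cbx7* and 764 within 0.15 of *Bmi1*, and *Lrig2* has a second probe with a log2 fold change of -0.04.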

How the data were processed

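RNA of 3 WT and 3 IG27 samples was measured with Cy3 on single-color Agilent arrays. The authors scanned the slide and deposited, per spot, the processed signal intensity of Feature Extraction (version 10.7.3.1 per the file headers, 9.1 per the submitters' processing notes), on a linear scale and not scaled between arrays, and a table of the same intensity per probe. At the single-spot probes, all that were compared, the table equaled the scanner output (relative tolerance 1e-04) at 56305 of 56305 on each complete array and at 255 of 255 on IG27 replicate 2, with the columns of WT replicates 2 and 3 exchanged with each other. Arrays were identified by their scanner output. The table gave the values of IG27 replicate 2, which were not checked beyond those 255 probes.

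Outlier spots, 107 to 210 on each complete array, were dropped. Intensities were used as log2 relative to the 75th percentile of their array. No spot of the 5 complete arrays was saturated. Their median processed signal was 55.4 to 77.1, and that of IG27 replicate 2 was 77.6. RefSeq accessions named 32989 probes of 22907 genes. A probe was kept if all complete arrays of a group had it well above background, and a gene was read from its brightest probe. The groups were compared in R 4.3.3 by limma 3.58.1 (lmFit, then eBayes) with two-sided p-values, without a block. P-values were adjusted over 14894 genes by Benjamini-Hochberg, with a threshold of 0.05. Neighboring genes are the 5 tested genes on either side in the GRCm38.p6 annotation. The steps were tested on simulated data. The number of arrays limits the precision.

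The subunits, the lists and the markers were chosen with earlier results of these data known. Named are the subunits, of each other Polycomb list the 2 largest called rises and falls without overlap, the paralogs, *Cdkn2a* and *Cdkn2b*, and the 3 genes most like the subunits with the largest rise and fall. Of the genes this rule selects, 1 is not reported here. The neighbors, the undetected targets, and the single markers were named after their values were seen. So were *Pcgf1*, *Pcgf3*, *Pcgf6*, *Ezh2*, and *Rbbp7*. The alternatives were quantile and median scaling, normexp background correction (offset 50, median spot and background signals of the 5 complete arrays), the complete arrays only, no filter and a stricter filter, outlier spots kept, the mean of the probes of a gene, an intensity trend, replicate number or slide row as a block, and each array left out.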

Additional observations from a re-analysis of the deposited data

How the results depend on the processing

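*Cbx7*, *Cbx6*, *Rnf2*, *Bmi1*, *Pcgf2*, and *Phc1* kept their direction and their call under all 17 alternatives, with log2 fold changes of 0.995 to 1.301, 0.524 to 0.901, 0.401 to 0.772, -1.24 to -0.845, -1.016 to -0.709, and -0.965 to -0.679. Leaving out each array in turn gave 6 or 7 subunits called, the seventh being *Ring1* without IG27 replicate 1 (0.264, from 0.177), and 9796 to 10159 genes called. With the array median subtracted, 5 subunits were called lower in place of 3, and *Ring1* stood at -0.062. The sign of *Cbx2* turned to 0.011 with quantile normalization, 0.026 with normexp, 0.028 with the slide row as a block, and 0.011 without IG27 replicate 1 (-0.098 to 0.011 with each array left out). That of *Cbx8* turned to 0.006 with normexp, 0.049 with the complete arrays only (which equals leaving out IG27 replicate 2), 0.066 with the slide row as a block, and 0.03 without WT replicate 1 (-0.046 to 0.049 with each array left out). The difference in the ratio of *Cbx2* to *Cbx8* turned to 0.054 with quantile normalization, 0.02 with normexp, and 0.057 without IG27 replicate 1 (-0.14 to 0.057 with each array left out). The Polycomb targets called were 2 in place of 4 with normexp and with the slide row as a block. The cause was not tested.

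Replicate numbers are shared between the groups, and the deviations of same-numbered arrays had Pearson's r of 0.012, 0.04, and 0.076 over 14881 genes. The other pairs of a WT and an IG27 array ran from -0.094 to 0.059. WT arrays were numbered here, and in the block below, by their scanner output. In the deposited value table WT replicates 2 and 3 are exchanged, and with that numbering IG27 replicates 2 and 3 would have r of -0.003 and -0.094. From 3 arrays per group these values cannot show whether same-numbered arrays were handled together. With the replicate number as a block, 6 subunits (3 higher, 3 lower) and 10306 genes were called, against 6 and 10498 without it. Probes near background limit the Polycomb targets, of which 6 of 18 could be tested, and *Cbx7*, *Phc1*, *Ring1*, *Cbx2*, and *Cbx8* rest on 1 probe each.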
